A study of Mus musculus with 10 samples.

Results

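The genes described here are 49 genes of the cell cycle and of DNA replication, taken by name from a list of the proliferation program. A gene counted as measured when a probe of the array carried the RefSeq accession of that gene. Probes were matched to 47 of the 49, with 66 probes in all, out of 18535 genes named on the array. No probe was matched to Rrm2 or Prc1. The members fall into 19 genes of S phase (18 measured), 28 genes of G2 and mitosis, called G2/M (27 measured), and Foxm1 and Mybl2, which regulate the program.

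Each of 10 arrays compared RNA from the left hemibrain of a male C57BL/6J mouse, labeled with Cy-5, with another RNA labeled with Cy-3. The mice were singly housed from 3 weeks of age, kept for 20 weeks on standard lab diet (SD) or on n-3 PUFA enriched diet (FD), which held fish oil, and were 5 months old at the end. The labels give FD as the diet of the Cy-5 RNA on all 10 arrays and call all 10 controls, whereas the study's methods name 4 arrays of FD-fed and 3 of SD-fed mice, so no array was assigned to a diet and no diets were compared. The Cy-3 RNA is pooled SD hemibrain in the labels and a commercial reference RNA in the methods. Arrays are named by animal, C10-413 to C10-437, and the number of arrays limits the precision of every value.

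Cells that divide express these genes in waves. E2F factors drive the genes that license and copy DNA at the entry to S phase, and the MuvB complexes with B-MYB and FOXM1 drive the mitotic genes later. In resting cells, the DREAM complex of MuvB with pocket proteins holds both sets down. In the adult mouse brain most neurons have left the cycle, and division is found mainly among progenitors of the subventricular zone and the dentate gyrus, oligodendrocyte precursors, and vascular and glial cells.

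CHR elements, CCAAT boxes and E2F sites are known elements of such promoters, and the windows are printed here because the motifs found in them differ between S phase and G2/M members. Windows of 300 bases (250 before to 50 after the start of transcription) came from RefSeq for build GRCm38.p6 and covered 39 of the 49 members. The following members were chosen to show the spread of the ratios and of the motifs, with Mki67 among the lowest ratios, Ccne1 near equal in both channels, and Ccnb2, Cdk1, Plk1, Mcm5 and Mcm3 in between. Capitals mark matches to the CHR element (TTTGAA or TTTAAA), the CCAAT box (CCAAT) and E2F sites (TTCCCGCC, TTTCGCGC or TTTGGCGC) on either strand, so that a match on the other strand reads as its reverse complement. E2F matches can overlap each other and, in the Mcm7 window, a CCAAT box.
Mki67, chr7:135716330-135716629, minus strand: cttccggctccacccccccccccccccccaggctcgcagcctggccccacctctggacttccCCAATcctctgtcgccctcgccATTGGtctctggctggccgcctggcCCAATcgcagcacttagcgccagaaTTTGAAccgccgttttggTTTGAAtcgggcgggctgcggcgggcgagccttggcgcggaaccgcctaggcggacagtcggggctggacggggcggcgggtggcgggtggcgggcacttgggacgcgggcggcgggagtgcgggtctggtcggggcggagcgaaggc
Ccnb2, chr9:70421505-70421804, minus strand: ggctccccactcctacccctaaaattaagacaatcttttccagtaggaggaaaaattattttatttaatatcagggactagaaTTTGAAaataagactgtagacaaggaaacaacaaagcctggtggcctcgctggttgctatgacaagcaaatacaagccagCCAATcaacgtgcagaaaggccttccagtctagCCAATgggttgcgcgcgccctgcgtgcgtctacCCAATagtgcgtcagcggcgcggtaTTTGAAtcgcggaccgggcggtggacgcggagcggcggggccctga
Cdk1, chr10:69352863-69353162, minus strand: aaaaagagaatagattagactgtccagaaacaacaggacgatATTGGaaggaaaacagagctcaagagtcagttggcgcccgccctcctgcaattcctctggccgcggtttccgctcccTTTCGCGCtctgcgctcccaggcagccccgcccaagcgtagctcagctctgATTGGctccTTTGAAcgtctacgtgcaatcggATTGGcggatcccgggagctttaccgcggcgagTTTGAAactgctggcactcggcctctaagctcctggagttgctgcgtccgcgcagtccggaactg
Plk1, chr7:122159185-122159484, plus strand: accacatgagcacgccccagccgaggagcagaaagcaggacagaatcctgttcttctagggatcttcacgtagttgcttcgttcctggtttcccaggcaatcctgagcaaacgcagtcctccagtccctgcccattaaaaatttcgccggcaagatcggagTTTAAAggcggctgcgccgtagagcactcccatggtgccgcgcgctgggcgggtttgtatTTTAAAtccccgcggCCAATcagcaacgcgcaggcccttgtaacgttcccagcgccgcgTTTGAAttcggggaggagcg
Mcm5, chr8:75109259-75109558, plus strand: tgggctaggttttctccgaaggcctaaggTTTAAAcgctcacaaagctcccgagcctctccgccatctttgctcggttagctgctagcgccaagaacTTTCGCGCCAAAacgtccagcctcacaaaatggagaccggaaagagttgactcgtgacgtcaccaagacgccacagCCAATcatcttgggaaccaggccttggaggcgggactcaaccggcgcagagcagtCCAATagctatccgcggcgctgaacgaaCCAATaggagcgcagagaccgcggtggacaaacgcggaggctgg
Mcm3, chr1:20820263-20820562, minus strand: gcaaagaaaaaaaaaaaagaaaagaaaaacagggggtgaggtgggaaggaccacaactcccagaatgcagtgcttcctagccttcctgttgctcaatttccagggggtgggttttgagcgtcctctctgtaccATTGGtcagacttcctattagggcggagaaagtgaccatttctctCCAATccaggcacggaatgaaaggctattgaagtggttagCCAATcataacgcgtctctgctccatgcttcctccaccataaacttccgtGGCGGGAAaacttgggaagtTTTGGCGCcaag
Ccne1, chr7:38107441-38107740, minus strand: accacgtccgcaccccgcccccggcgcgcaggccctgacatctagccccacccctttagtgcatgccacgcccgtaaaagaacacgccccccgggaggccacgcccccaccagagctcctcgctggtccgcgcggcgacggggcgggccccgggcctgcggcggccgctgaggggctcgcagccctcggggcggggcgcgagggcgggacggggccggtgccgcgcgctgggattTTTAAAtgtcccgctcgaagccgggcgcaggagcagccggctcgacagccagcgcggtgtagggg

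Mki67 held 2 CHR matches and 3 CCAAT boxes. Ccnb2, which encodes a mitotic cyclin, held 2 and 3, and Plk1, which encodes a mitotic kinase, held 3 and 1. None of these 3 windows held an E2F match. Mcm5 and Mcm3 encode subunits of the replicative helicase, and each held 2 E2F matches beside 3 CCAAT boxes. Mcm5 also held 1 CHR match, so that it and Cdk1, the kinase of mitotic entry, held all 3 kinds. The Ccne1 window held a CHR match alone. A match is a run of letters, not a shown binding site.

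A gene was counted if any of its windows held a match. Over the members, a CHR match was found for 19 of 23 G2/M members (82.6%) and 6 of 15 S phase members (40%), against 30.6% of the 27025 genes with a window in the table. Within 50 bases on either side of the start, the shares were 69.6% of G2/M members, 20% of S phase members and 9.54% of all genes. CCAAT boxes were found in 78.3% of G2/M members, 53.3% of S phase members and 41.1% of all genes. Genes with both a CHR match and a CCAAT box, in the same or another window, made up 73.9%, 26.7% and 13.4%. E2F matches went the other way, with 6 of 15 S phase members (Cdt1, Mcm3, Mcm5, Mcm6, Mcm7 and Chek1; 40%), 1 of 23 G2/M members (Cdk1; 4.35%) and 3.39% of all genes. The member windows were richer in G and C than the others, with medians of 58.7% and 52.7%. These shares describe the sequences and were not tested.

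**Figure D1:**
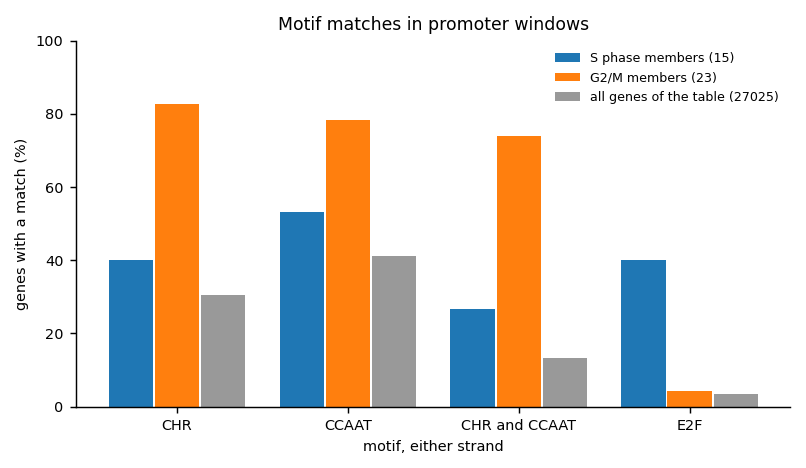
Share of genes (y axis, %) with at least 1 match of each motif on either strand (x axis) in the promoter window, for 15 S phase members, 23 G2/M members and all 27025 genes of the table. CHR matches and their pairing with CCAAT boxes were most frequent among G2/M members (82.6% and 73.9%), and E2F matches among S phase members (40%).

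Values are log2 of Cy-5 over Cy-3 after loess within each array, so that -1 stands for a signal 2-fold lower in the hemibrain channel and 0 for equal signals. A probe is called well above background where the scanner software flagged its signal so. In bulk tissue, fewer dividing cells and less RNA per cell cannot be told apart. The identity of the channels was checked with marker genes first. All 9 neuronal markers had a log2 ratio of 1 or more on all 10 arrays, against 17.2% of the 17656 genes with a value on every array, with a list median of 6.38 over the arrays. Snap25, of the synaptic fusion machinery, had a median of 6.38 (6.00 to 7.51), with Cy-3 well above background on 9 arrays. Of the 9 neuronal markers, 6 were well above Cy-3 background on all 10 arrays. All 6 oligodendrocyte markers and 5 of 6 astrocyte markers also had a log2 ratio of 1 or more on all 10 arrays. These ratios go against the label of the Cy-3 RNA as pooled hemibrain.

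The cell cycle genes were lower in the hemibrain channel almost without exception. Of the 46 members with a value on every array, 43 had a log2 ratio of -1 or less on all 10 arrays (13.7% of all genes), 42 had -2 or less (5.98% of all genes) and 20 had -4 or less (1.01% of all genes). None reached 1 or more on all arrays. The median of the members was -4.35 (lowest array -4.62, C10-413; highest -3.96, C10-434), and that of all genes was 0.11. Mcm7 had a value on 9 arrays, because its spot on the other was set aside as an outlier, and was -1 or less on each of the 9. The exceptions were Ccne1, E2f1 and Bub1, described with their groups below.

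All 47 members were well above Cy-3 background on each of the 10 arrays (73.2% of all genes). In Cy-5, 31 of 47 were well above background on all 10 arrays (65.6% of all genes), and 2, Aurkb and Ttk, on none. Of the other 14, 6 missed the flag on 1 array. C10-434 had the fewest members above background, 31, and C10-423 the most, 45. Where a member was not well above Cy-5 background, its measured ratio is uncertain and a bound was set. With all such spots at their bound the list median was -4.27 (-4.58 to -3.62). The count at -1 or less on all arrays was then 43 of 46 as well. At their bounds Ttk (highest -1.50) and Ccne2 (-1.76) did not reach -2 on every array. Kif11 (highest -3.88), Kif2c (-2.96) and Cdc45 (-3.25) did not reach -4.

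**Figure D2:**
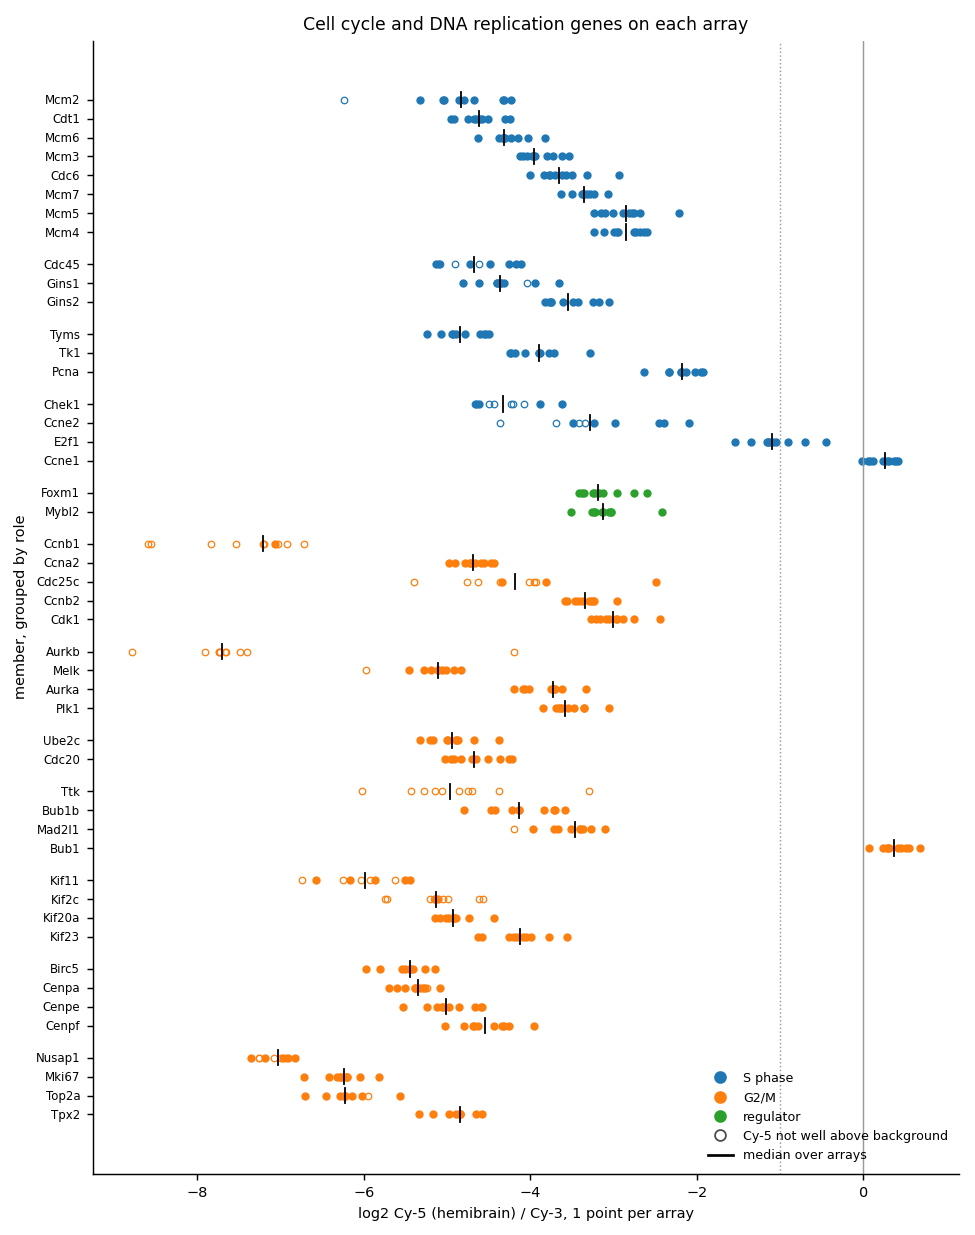
Log2 Cy-5/Cy-3 (x axis) of the 47 measured members (y axis, grouped by role), with 1 point per array, filled where Cy-5 was well above background and open where it was not, and a bar at the median. All members but Bub1, Ccne1 and E2f1 lie left of the dotted line at -1 on every array, and the lowest point, -8.78 for Aurkb, is an open one.

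Licensing of replication origins and the MCM helicase were measured by 8 members, all lower in the hemibrain channel. Cdc6 and Cdt1 load the helicase on origins. Cdt1 had a median log2 ratio of -4.62 (-4.95 to -4.24), and Cdc6 of -3.66 (-4.0 to -2.94). The ratios of the 6 subunits of the ring, MCM2 to MCM7, differed. A ratio compares a gene between the RNAs of the channels and does not give the amounts of the subunits against each other. Mcm2 was lowest at -4.83 (-6.24 to -4.23). Mcm6 followed at -4.31 (-4.63 to -3.82) and Mcm3 at -3.95 (-4.12 to -3.54). Mcm7 had a median of -3.36 (-3.63 to -3.07, 9 arrays). Mcm4 (-2.85, from -3.24 to -2.60) and Mcm5 (-2.85, from -3.23 to -2.22) were the least low and did not differ beyond their spread over the arrays. The ranges of Mcm6 and Mcm4 did not overlap. The Cy-5 intensity of Mcm4 ran from 4500 to 10596 over the arrays, with a Cy-3 median of 57000.2. For Mcm6 the Cy-5 intensity ran from 3439 to 7244, with a Cy-3 median of 103638, and for Mcm7 from 3687 to 7229, with a Cy-3 median of 63602. Mcm2 alone of the ring subunits missed the background flag, on C10-434.

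The factors that activate the helicase followed the same direction. Cdc45 had a measured median log2 ratio of -4.67 (-5.13 to -4.11), with Cy-5 well above background on 7 arrays. It was at least 9.53-fold lower on each array. Gins1 was at -4.36 (-4.81 to -3.66) and Gins2, of the same complex, at -3.55 (-3.82 to -3.06). The ranges of Gins1 and Gins2 overlapped.

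Among the enzymes of nucleotide supply, Tyms, which makes thymidylate, had a median log2 ratio of -4.84 (-5.24 to -4.50). Tk1, which salvages thymidine, was at -3.89 (-4.24 to -3.28). Both were well above Cy-5 background on every array. Pcna, the sliding clamp of DNA polymerase that also serves in DNA repair, was much less low, with a median of -2.18 (-2.63 in C10-415 to -1.93 in C10-437), or 4.54-fold lower. Its Cy-5 intensity ran from 6946 to 21824 over the arrays, with a Cy-3 median of 71756. No array of Pcna reached the range of Tyms or Tk1.

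Cyclin E, E2F1 and CHK1 act at the entry to S phase and in its checkpoint. Ccne1, which encodes cyclin E1, was close to equal in both channels, with a median log2 ratio of 0.26. Its values were 0.08 (C10-413), 0.42 (C10-415), 0.31 (C10-416), 0.39 (C10-417), 0.28 (C10-423), 0.12 (C10-424), 0.06 (C10-425), 0.37 (C10-434), 0.24 (C10-435) and -0.02 (C10-437). Its other probe had a median of 0.21, so both probes placed the gene near 0. Ccne2, which encodes cyclin E2, had a measured median of -3.28 (-4.36 to -2.10) and was well above background on 6 arrays. At its bound it was at least 3.38-fold lower on each array. The ranges of the cyclin E genes did not overlap. E2f1, the factor that switches on S phase genes, had a median of -1.10 (-1.54 to -0.45), and its other probe -1.22 (-1.55 to -0.77). It lay on both sides of -1, but below 0 on every array. Chek1, the checkpoint kinase of stalled forks, was at a measured -4.33 (-4.66 to -3.62), with 4 arrays above background. It was at least 5.59-fold lower on each array.

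The regulators of the late program were measured well above background on all arrays. Foxm1 had a median log2 ratio of -3.19 (-3.41 to -2.60), or 9.15-fold lower. Mybl2, which encodes B-MYB, had a median of -3.13 (-3.51 to -2.42). Their ranges overlapped over almost their whole length.

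Mitotic cyclins and CDK1 were uneven. Ccnb1, which encodes cyclin B1, had a measured median log2 ratio of -7.21 (-8.59 to -6.72), but was well above Cy-5 background on 1 array. At its bound it was at least 29.2-fold to 215-fold lower, by array. Ccnb2, which encodes cyclin B2, was at -3.34 (-3.58 to -2.96), well above background on all arrays. The ranges of Ccnb1 and Ccnb2 did not overlap, also with this Ccnb1 probe at its bound (-7.75 to -4.87). The other Ccnb1 probes had measured medians of -6.25 and -7.49, with 3 and 0 arrays above background. At its bound the former stayed below the Ccnb2 range (highest -3.86), but the latter overlapped it (highest -3.47). Ccna2, the cyclin of S phase and G2, was at -4.69 (-4.97 to -4.44). Cdk1, their partner, had a median of -3.01 (-3.27 in C10-424 to -2.44 in C10-434), 8.04-fold lower, with Cy-5 intensities of 1061 to 1691. Its other probe, with a median of -1.61, was not well above Cy-5 background on any array. Cdc25c, the phosphatase that activates CDK1, was at a measured -4.18 (-5.40 to -2.49) with 3 arrays above background. It was at least 4.15-fold lower on each array.

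The kinases of mitosis and the anaphase-promoting complex were low throughout. Plk1 had a median log2 ratio of -3.58 (-3.85 to -3.05) and Aurka, which acts at the spindle poles, of -3.73 (-4.20 to -3.33). Aurkb, the kinase of the chromosomal passenger complex, had a measured median of -7.70. It was not well above Cy-5 background on any array, with intensities of 12.6 to 30.5 on 9 arrays and 115.7 on C10-434. By array it was at least 18.2-fold (C10-434) to 148-fold (C10-423) lower. The value of C10-434 is its measured ratio there (-4.19), which was less low than the bound from background and is uncertain. With dim spots at their bound its median was -6.43, against -6.99 for Ccnb1 and -6.98 for Nusap1, so the order of these members is not set. Melk, a kinase of proliferating progenitors, was at -5.11 (-5.97 to -4.83). Cdc20, which activates the anaphase-promoting complex, had a median of -4.67 (-5.02 to -4.22), and Ube2c, its ubiquitin-conjugating enzyme, of -4.94 (-5.32 to -4.37). Both were well above Cy-5 background on every array.

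The spindle checkpoint held the member with the largest disagreement between probes. Bub1b, which encodes BUBR1, had a median log2 ratio of -4.13 (-4.79 to -3.58) and Mad2l1 of -3.46 (-4.19 to -3.10). Ttk, the kinase that starts the checkpoint, was not well above Cy-5 background on any array and was at least 2.83-fold to 26.9-fold lower. Bub1, a kinase of the checkpoint, was represented by its brighter probe, A_52_P259126, at 0.37 (0.07 to 0.68). Its other probe, A_51_P123405, had a measured median of -8.97 and was not well above Cy-5 background on any array, at least 34.8-fold lower on each. The probes matched different RefSeq transcripts of the gene, and their values did not overlap with the dim probe at its bound (-7.98 to -5.12). Which of them reads the main transcript was not tested, so the place of Bub1 is uncertain.

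Kinesins and proteins of the centromere and the spindle had medians from -7.03 to -4.12. Kif11, the motor that separates the spindle poles, had a measured median log2 ratio of -5.98 (-6.74 to -5.44), with 5 arrays above background. It was at least 14.8-fold lower on each array. Its other probe had a measured median of -3.44 and was above background on 1 array. Kif2c had a measured median of -5.13, with 2 arrays above background, and was at least 7.8-fold lower on each array. Kif20a was at -4.93 and Kif23, of the central spindle, at -4.12 (both above background on all arrays). Cenpa, the histone of the centromere, was at -5.35 (-5.70 to -5.08), Cenpe at -5.01 and Cenpf at -4.54. Birc5, which encodes survivin of the passenger complex, was at -5.45 (-5.97 to -5.14), 43.7-fold lower.

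Nusap1, a microtubule protein of the spindle, had a median log2 ratio of -7.03 (-7.35 to -6.83), with 5 arrays above background. It was at least 45.4-fold lower on each array. Tpx2, which activates Aurora A, was at -4.84 (-5.34 to -4.58). Top2a, the topoisomerase that untangles chromosomes, had a median of -6.22 (-6.71 in C10-435 to -5.57 in C10-417), with Cy-5 above background on 9 arrays. Mki67, the proliferation marker Ki-67, was well above background on every array. Its log2 ratios were -6.72 (C10-413), -6.20 (C10-415), -6.21 (C10-416), -6.20 (C10-417), -6.29 (C10-423), -6.32 (C10-424), -6.27 (C10-425), -5.82 (C10-434), -6.42 (C10-435) and -6.05 (C10-437). Its median was -6.24, 75.7-fold lower, with Cy-5 intensities of 645 to 1127 against Cy-3 intensities of 40870 to 98702. The other Mki67 probe gave -5.97 (-6.39 to -5.15), so the gene was low with both.

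Between the subgroups, G2/M members were lower than S phase members on all 10 arrays. The S phase median was -3.73 over the arrays (-4.06 to -3.31) and the G2/M median -4.88 (-5.14 to -4.37). The difference between them had a median of 1.09. Of the S phase members 15 of 17 were at -1 or less on all arrays, and 4 at -4 or less. Of the G2/M members 26 of 27 were at -1 or less and 16 at -4 or less. Over all genes the shares were 13.7% and 1.01%. These counts use measured ratios, and at their bounds Cdc45, Kif11 and Kif2c did not reach -4 on every array. The subgroups overlapped, as the medians of S phase members ran from -4.84 (Tyms) to 0.26 (Ccne1). Many G2/M members had medians within that range, among them Ccnb2, Cdk1, Mad2l1, Plk1, Aurka, Kif23, Bub1b, Cdc25c, Cenpf, Cdc20 and Ccna2. The difference describes these genes and was not tested.

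The same direction was seen in 98 other genes of the cell cycle, of which 95 were measured. By measured ratios, 79 of the 92 with a value on every array were at -1 or less on all arrays (13.7% of all genes). At -2 or less were 65 (5.98% of all genes), and at -4 or less 22 (1.01% of all genes). Their list median was -3.17 over the arrays, less low than that of the members. The lowest measured medians were those of Ect2, which drives cytokinesis (-7.25), Kif15 (-6.87), Ncapg of condensin (-6.45), Uhrf1, which guides maintenance methylation (-6.33), and Sgo1, which guards centromeric cohesion (-6.18). Of these, Ect2 was well above Cy-5 background on 2 arrays and Kif15 on none, with medians of -7.11 and -4.91 at their bounds, so that the place of Kif15 in this order is not set. At the other end were Zwint, a kinetochore protein, at 2.95 (2.64 to 3.33, 9 arrays), and E2f3 at 1.16 (0.89 to 1.53, 9 arrays), followed by Cit (0.73), Orc2 (0.29) and Prim2 (0.25). None of the 92 was at 1 or more on all arrays. Zwint was not among the 92, and was above 1 on all of its 9 arrays.

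The regulators of G1, the pocket proteins and the inhibitors were less low as a list. Of 24 such genes 23 were measured, 22 of them on every array. Of the 22, 10 were at -1 or less on all arrays (13.7% of all genes) and 2 at 1 or more (17.2% of all genes). The list median was -1.40. Cdk6 (-5.02, not well above Cy-5 background on any array, at least 4.16-fold lower on each), Cdkn2a (-4.07), Cdkn2b (-4.03), Rbl1, which encodes p107 (-3.75), and Cdk4 (-2.98) were the lowest. Lin52, a MuvB subunit, had the highest median (2.12), followed by the inhibitor Cdkn1c, which encodes p57 (1.77), Cdkn2d (0.70), Lin37 (0.46) and Rbl2, which encodes p130 (0.24). Of the pocket proteins, Rbl1 was below 0 on every array, as was Rb1 (-1.01, from -1.37 to -0.45), and Rbl2 lay on both sides of 0 (-0.16 to 0.73).

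**Figure D3:**
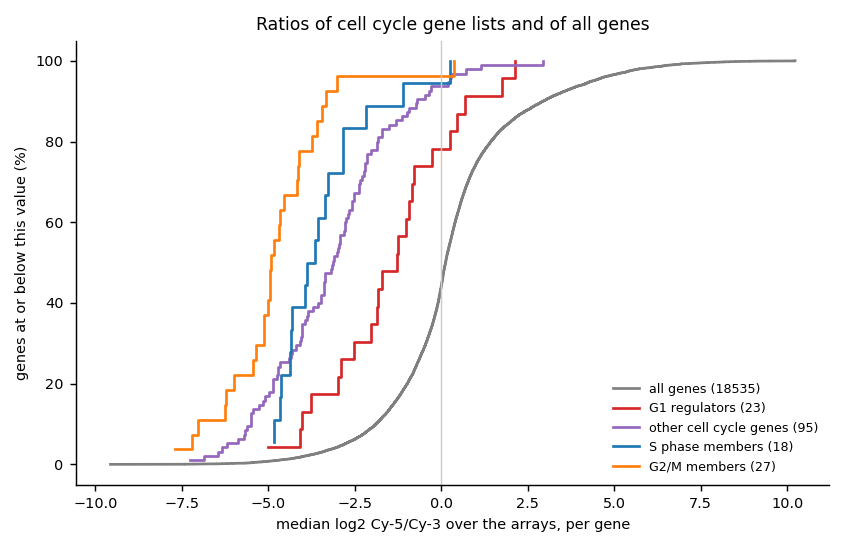
Cumulative share of genes (y axis, %) at or below each median log2 Cy-5/Cy-3 over the arrays (x axis), for 27 G2/M members, 18 S phase members, 95 other cell cycle genes, 23 G1 regulators and all 18535 genes. G2/M members lie farthest left and G1 regulators nearest to all genes.

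Markers of the cells that can divide in the adult brain stood beside these values as follows. Of the 8 neuroblast and progenitor markers, 5 had a log2 ratio of 1 or more on all arrays, against 17.2% of all genes. Dcx, a marker of young neurons, had a measured median of 6.69 and Sox2, of neural stem cells and astrocytes, of 7.63, whereas Nes was at -1.58. Dcx was well above Cy-3 background on 1 array and Sox2 on 0, so the size of their ratios is not set. Nes was well above it on all 10. Of the 5 genes listed for the precursors of oligodendrocytes, 4 had a value on every array, 2 of them (Olig1 and Olig2) at 1 or more and 1 (Pdgfra) at -1 or less. Whether the Olig1 and Olig2 signal came from precursors or from other oligodendrocytes was not tested. Olig1 was at 7.22, Olig2 at 5.07, Gpr17 at 4.23 (9 arrays), Cspg4 at 0.76 and Pdgfra at -2.40 (-2.76 to -2.21). Olig1 was well above Cy-3 background on 9 arrays and Olig2 on 7. None of these ratios sets a share of dividing cells, and their part in the low ratios of the members was not tested.

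The members varied between arrays about as much as other genes. The range of a member over the 10 arrays had a median of 0.95 on the log2 scale, against 0.97 for all genes, and of 0.81 for the 30 members with Cy-5 well above background on all arrays, against 0.82 for all such genes. The widest range was that of Aurkb, 4.59. After each member's median was subtracted, the list stood at -0.28 on C10-413, 0.25 on C10-415 and 0.33 on C10-434, and within 0.07 of 0 on the other arrays. C10-413 was lowest for 22 of the 47 members and C10-434 was highest for 22. C10-434 had the lowest median Cy-5 signal over all probes (28.5, against 60 to 171.3 on the others) and the lowest share of probes well above Cy-5 background (49.8%, against 68.2% to 76.9%). C10-413 had the highest median Cy-5 signal (171.3). The neuronal list was highest on C10-434 as well (7.51, against 6.00 to 6.91). The part of signal and array in these deviations was not tested.

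**Figure D4:**
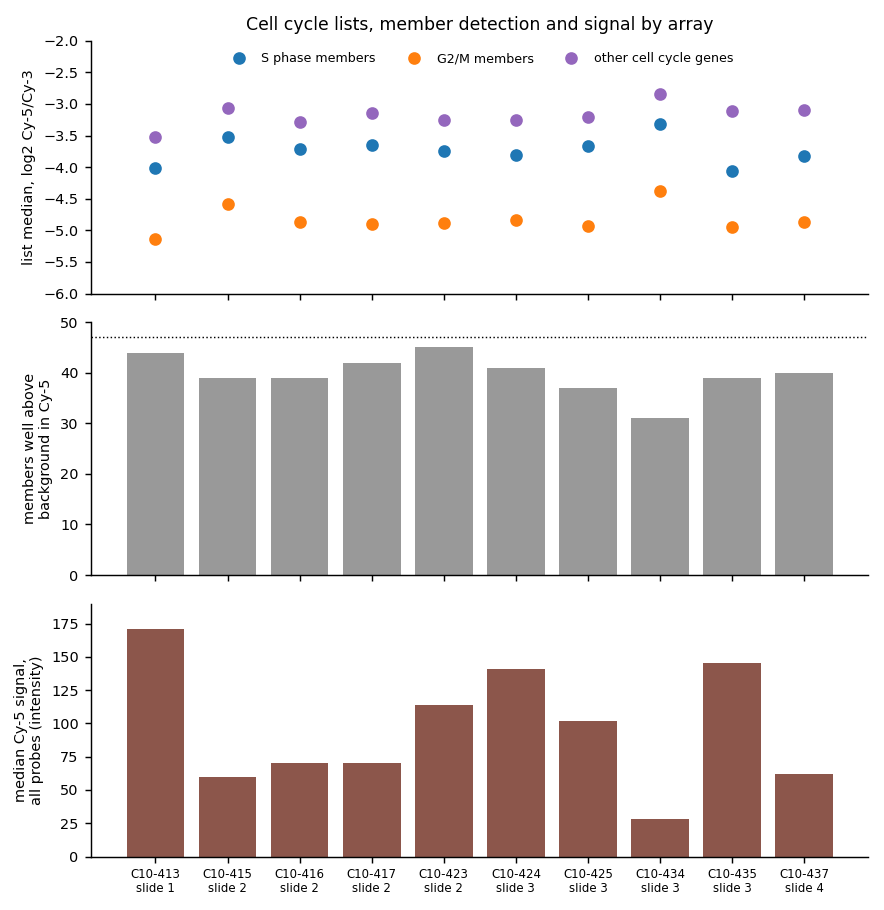
Top, list medians of log2 Cy-5/Cy-3 by array for S phase members, G2/M members and other cell cycle genes. Middle, number of the 47 members (dotted line) well above Cy-5 background. Bottom, median background-subtracted Cy-5 intensity over all probes. The lists keep the same order on every array and are highest on C10-434, where 31 members were above background and the median signal was 28.5.

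Slide was the only batch that could be tested, between the slide of C10-415, C10-416, C10-417 and C10-423 and that of C10-424, C10-425, C10-434 and C10-435. Slide and animal cannot be told apart in it, and the diets of these animals are not settled. None of the 65 member probes passed limma's test with Benjamini-Hochberg adjustment over 40299 probes, where 30 of all probes (0.0744%) passed. At an unadjusted p under 0.05, 3 member probes (4.62%) were counted against 9.92% of all probes. The median difference of the member probes was 0.02 (-1.04 to 1.45), against 0.01 over all probes.

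The smallest p belonged to the Chek1 probe that was not taken for the gene. Its means were -5.23 on the former slide and -3.77 on the latter, a difference of 1.45 (limma p = 0.00353, adjusted p = 0.197). It was well above Cy-5 background on 5 of the 10 arrays. The Chek1 probe taken for the gene went the other way, with a difference of -0.13 (adjusted p = 0.96). Mcm2 was lower on the latter slide by a difference of -0.87 (limma p = 0.0273, adjusted p = 0.402), with C10-434, where it was not well above background, at -6.24. The probes of Cdc25c went in opposite directions, with differences of -1.04 (adjusted p = 0.438) and 1.03 (adjusted p = 0.577), and were above background on 3 arrays and on none. The next was a probe of Ccnb1 (0.35, adjusted p = 0.68). No difference between slides was therefore called for a member, and none of the 5 probes with the smallest p was above background on every array.

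**Figure D5:**
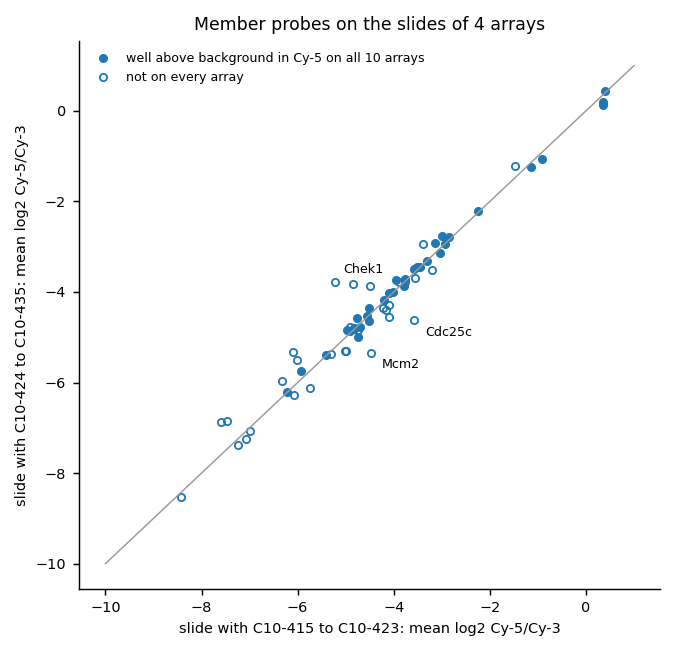
Mean log2 Cy-5/Cy-3 of the 65 member probes on the slide of C10-415 to C10-423 (x axis) and on that of C10-424 to C10-435 (y axis), filled where Cy-5 was well above background on all 10 arrays, with the line of equality. The probes lie along the line, and the 3 named ones have the smallest p-values (0.00353 for that probe of Chek1, whose other probe differed by -0.13).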

How the data were processed

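RNA of 10 hemibrains (Cy-5) was hybridized against another RNA (Cy-3) on Agilent 4x44k arrays, which the authors scanned with Feature Extraction (10.10.1.1 in the file headers). The deposited signals of each dye are intensities on a linear scale, background-subtracted and dye-normalized by the software as processed signals. The deposited spot ratios (Cy-5 over Cy-3) are on a log10 scale. A deposited table holds 1 log2 ratio per probe and array, which matched the scanner ratio within 0.001 for 100.0% of probes, with no centring and Cy-5 on top. The deposited flags are coded as other values and were used as they were.

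From the processed signals, log2 Cy-5/Cy-3 was computed, without control spots and without spots flagged as outliers. Loess (span 0.3) was run array by array, and the spots of a probe were averaged. The background flag was given to a probe if a share of 0.5 or more of its spots carried it. Of 41174 probes, 27190 were named through RefSeq accessions (assembly GRCm38.p6, used for names and promoter windows only). The build of the array design differs, so coordinates are given for promoter windows only. Among the probes of a gene, the brightest on average was taken. A member not well above Cy-5 background was given a bound, written as at least N-fold lower where it is printed. It was the lowest Cy-5 signal well above background on that array over the member's own Cy-3 signal, after loess and Aquantile scaling. Where the measured ratio was less low than this, the measured ratio was kept in its place. Such bounds are open to dye bias, as no dyes were swapped.

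Values over the arrays (the lowest, the median and the highest, or each array) were given for the 5 members at each end of the ratios, the 5 of highest Cy-5 intensity, and Mki67, Top2a, Pcna and Cdk1, and at least the median for the 5 genes at each end of other lists. Members and lists were chosen with earlier results of these data known. As no array has a settled diet, no test took arrays as replicates of a diet. The slide comparison took the 4 arrays of a slide as its replicates, and its p-values measure the spread between arrays only. That comparison used limma 3.58.1 in R 4.3.3. On simulated data of its 40299 probes, 62.5% of 200 probes changed by 1.5 (log2) were recovered, with 3 unchanged probes called. Python 3.11.15 with pandas 2.3.3 was used otherwise. Alternatives were no loess, median centring, normexp with an offset of 50, the deposited table, filters on dim probes, all probes of a member, and leaving out each array.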

Additional observations from a re-analysis of the deposited data

Results flagged for a closer look

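Of 52 measures checked over the 10 arrays (47 members, their lists and the number above background), 2 had an array far from the rest, both times C10-434. About 1 in 20 such measures would be set apart by chance. Aurkb was -4.19 on C10-434 (log2 Cy-5/Cy-3), against -8.78 to -7.40 on the other arrays, and was not well above Cy-5 background on any array. Mybl2 was -2.42 on C10-434, against -3.51 to -3.03 on the others, with Cy-5 well above background on all 10. C10-434 had the lowest median Cy-5 signal of the arrays, 28.5, and the part of that signal in these values was not tested.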

How the results depend on the processing

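The direction of the member list was the same under every alternative run. The median log2 ratio of -4.35 became -3.40 with normexp, -3.68 with background subtraction with a floor of 0.5 (chosen after seeing the data), and -3.85 over the members well above Cy-5 background on every array. The count of members at -1 or less on all arrays was 43 to 44 under the other settings (42 at -2 or less), but 18 with normexp and 27 of 30 over the members well above background. Normexp had to be run on median signals, and on C10-413 it gave a list median of -0.81, against -3.75 to -2.53 on the other arrays. Without C10-413 it counted 37 of 46 members. The difference between S phase and G2/M medians was 0.82 with normexp, against 1.09. The range of the list's deviation over the arrays, 0.62, became 2.72 with normexp, 1.06 with the floor, and 0.42 to 0.66 with each array left out, lowest without C10-413. The slide comparison, of 30 probes among all, called 0 with normexp, 0 with the floor, 92 over probes well above background, and 0 to 8 with each of the 8 arrays left out. It called 0 member probes under every setting, with 0 to 5 at an unadjusted p under 0.05 and a smallest adjusted p (limma) of 0.0548, without C10-423. For the other shifts the cause was not tested. Without C10-434, 37 members were well above Cy-5 background on every array, against 31. Dim Cy-5 signal limits the G2/M members most, as 16 of 27 were measured above background on all arrays. No paired analysis was possible because no array has a group.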
